A study of Mus musculus with 76 samples.

Results

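The transition described here runs from the oocyte to the 2-cell embryo in mice that lack maternal Ezhip, the genotype labelled matKO. Every library with that genotype at these stages was taken from the labels: 4 single oocytes and 12 single 2-cell embryos, 16 of the 76 libraries of the series. The embryos were labelled female (6) or male (6). Wild-type (WT) oocytes (n = 3) and WT 2-cell embryos (n = 11) served only to test where the matKO transition differed. Polyadenylated RNA was sequenced from each oocyte or embryo on its own. The labels give the genotype as maternal loss of Ezhip in both stages. The sources used here do not give the allele, the part of the gene that was deleted, the genotype of the father, the mouse strain, the litter or the age of the animals or embryos.

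A mouse oocyte is transcriptionally silent when it completes meiosis and carries a store of maternal RNA. After fertilization that store is degraded and the embryo's own genome is switched on, in the mouse mainly during the 2-cell stage, with a brief wave of genes that are read only at that stage. Ezhip is an oocyte protein that inhibits PRC2, the Polycomb complex that places the histone mark H3K27me3. Some genes are imprinted through maternal H3K27me3 rather than through DNA methylation and are called noncanonical imprinted genes.

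Total counts ran from 5273706 to 26484630 in the oocytes and from 1476150 to 10967492 in the embryos. The labels number the libraries, and the embryos fell into 2 sets along these identifier numbers. The 5 embryos numbered 37 to 41 (4 female, 1 male) held 4189675 to 10967492 counts, and the 7 numbered 42 to 48 (2 female, 5 male) held 1476150 to 4653399 counts. On the first principal component of log2 expression (50.4% of the variance) the oocytes lay at -234 to -218, the embryos numbered 42 to 48 at 27.4 to 78.2 and the embryos numbered 37 to 41 at 103 to 121. What the numbers stand for is not given. No pair of libraries of a stage agreed within sampling noise (lowest chi-square per degree of freedom 19.1 in oocytes and 13.2 in embryos). Nothing in the labels says which libraries share an animal, so each p-value reflects how far single libraries scatter, and part of that scatter may be technical.

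Ezhip itself, listed as AU022751 on the minus strand of chromosome X from 6081219 to 6083419 (mm10), was near 0 in the matKO oocytes. It was low in most matKO embryos. The matKO oocytes held 0.287, 0.188, 0.591 and 0.119 CPM (counts per megacount of the library, scaled by TMM), 13 counts in all, beside 1021 to 1674 CPM in the WT oocytes. The matKO embryos held 0 CPM at the lowest, 0.987 CPM at the median and 18.4 CPM at the highest, beside 37.9 to 328 CPM in the WT embryos. The oocyte and embryo ranges overlapped: 7 embryos lay above every oocyte and 4 below every oocyte. Those 4, all at 0, were labelled male. Female embryos held 0.495 to 18.4 CPM and male embryos 0 to 8.44 CPM. A difference between the sexes was not tested. The log2 fold change from oocyte to embryo was 3.42 ± 1.56 (SE), with an adjusted p of 0.071 by edgeR's quasi-likelihood test. This call depended on the fit: Ezhip passed with the edgeR 4 dispersions (adjusted p 0.00327), with a sex term (0.0491), in female embryos only (0.0132), without the embryos numbered 42 to 48 (0.0046), in a fit on 30 libraries (0.00379) and with DESeq2 (0.0232).

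More than 1 in 2 of the tested genes changed between the stages. Of 14864 genes with enough counts, 4207 were higher in embryos (28.3%) and 3733 were lower (25.1%) at an adjusted p of 0.05, and 8760 had an unadjusted p under 0.05. Tested against a change of more than 2-fold, 3089 were higher (20.8%) and 2403 lower (16.2%). The oocytes and embryos did not overlap at all in 5004 genes (33.7%). CPM are shares of a library, so a fall in the total amount of RNA between the stages cannot be seen. Loss of a transcript cannot be told apart from a rise of others. Only polyadenylated RNA was read, so changes in a message's amount and in its polyadenylation cannot be told apart either. Among the members of the lists described further on, 346 were called, and 48 of those lost the call when at least 1 of the 16 libraries was left out. The split between higher and lower genes moved little with the scaling: 53% of the called genes were higher with TMM, 49.9% with RLE size factors and 55% with library totals. RLE moved the median of all genes to -0.115 (log2).

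**Figure D1:**
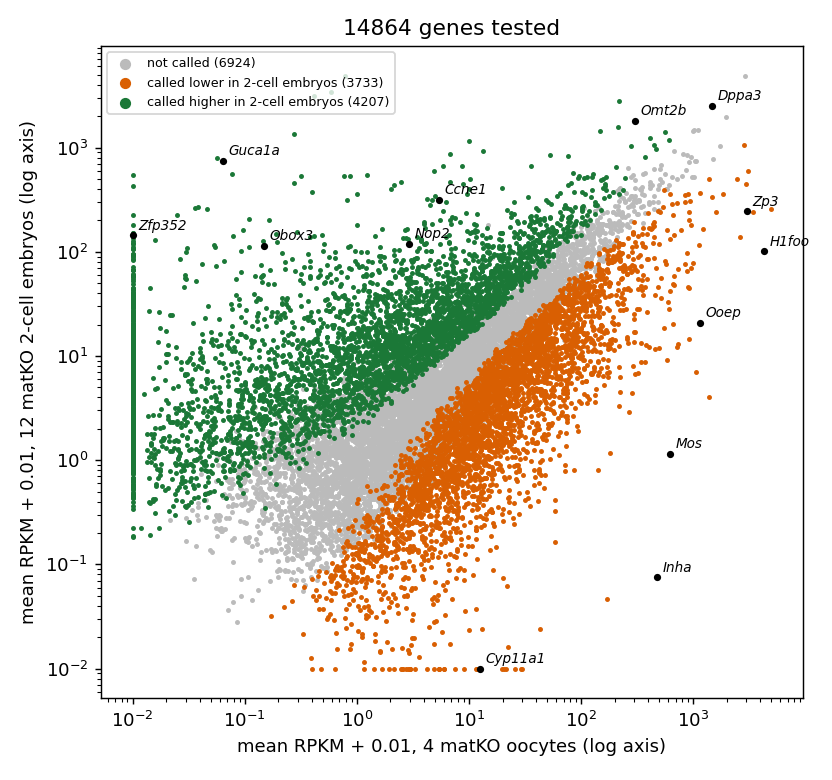
Mean RPKM (CPM per kilobase of gene length) of each of the 14864 tested genes in the 4 matKO oocytes (x axis) and in the 12 matKO 2-cell embryos (y axis), both on log axes after adding 0.01; green points were called higher and orange points lower in embryos. Genes at the left edge, among them Zfp352, had no count in any oocyte, and Cyp11a1, at the lower edge, had none in any embryo.

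Genes of the brief 2-cell wave showed the highest median change of the 24 gene lists examined. Of 43 tested members of a list of 2-cell genes, 38 rose, 2 fell and 3 were not called. The median log2 fold change was 7.67 beside -0.00708 over all genes. Counts of this list and of the lists below stand beside 28.3% higher and 25.1% lower over all tested genes. The list's mean level was 0.491 to 0.593 log2 CPM in the oocytes and 4.54 to 6.62 in the embryos. This list was written with the 2-cell wave in mind, so its direction is no independent evidence. The members that fell were Arg2, an arginase (-1.63 ± 0.44, adjusted p 0.00424), and Zfp750, a zinc finger gene (-3.11 ± 0.67, adjusted p 0.000625).

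Zfp352, a zinc finger gene of the 2-cell stage, had no count in any of the 4 oocytes. The embryos held 85.8 CPM at the lowest, 315 CPM at the median and 847 CPM at the highest, at least 4019-fold higher than a floor of 3 counts over the oocytes. The 5 embryos numbered 37 to 41 were the lowest, with 85.8 to 152 CPM, and the 7 others held 302 to 847 CPM. Trim43b and Trim43a, genes of a tripartite motif family, reached 344 CPM ± 104 (SD, n = 12) and 446 CPM ± 173 (SD, n = 12). Trim43b had no count in the oocytes (at least 6709-fold higher in embryos), and Trim43a had 1. Guca1a, which encodes an activator of guanylate cyclase, rose from 0.0717, 0, 0.118 and 0 CPM to between 220 and 1123 CPM in the embryos (median 584). The pooled ratio was 19680, with an exact 95% interval of 5449 to 162500 that covers counting error only. Its log2 fold change was 13.42 ± 0.76 (adjusted p 5.9e-11).

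The promoter sequences of some of these genes, and of genes for ribosome assembly described further on, are shown as a description. Both groups rose between the stages, from different starting levels. Each is the 100 bases before the RefSeq start of the gene (GRCm38.p6), read along the gene's strand. GGATTA, the letters that homeodomain proteins of the OTX kind prefer, was searched on both strands, where it reads TAATCC on the other strand, and TATAAA on the gene's strand. Matches are in capitals.

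Zfp352, chr4:90218720-90218819, plus strand: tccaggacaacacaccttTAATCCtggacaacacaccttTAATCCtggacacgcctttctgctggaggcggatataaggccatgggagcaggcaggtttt

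Guca1a, chr17:47400607-47400706, minus strand: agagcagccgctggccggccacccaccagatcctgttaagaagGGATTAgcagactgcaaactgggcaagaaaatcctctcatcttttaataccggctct

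Trim43a, chr9:88580791-88580890, plus strand: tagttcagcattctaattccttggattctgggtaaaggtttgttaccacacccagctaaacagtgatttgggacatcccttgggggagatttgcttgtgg

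Nop2, chr6:125131783-125131882, plus strand: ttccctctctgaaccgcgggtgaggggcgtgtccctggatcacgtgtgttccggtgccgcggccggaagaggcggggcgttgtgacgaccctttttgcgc

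Wdr43, chr17:71616115-71616214, plus strand: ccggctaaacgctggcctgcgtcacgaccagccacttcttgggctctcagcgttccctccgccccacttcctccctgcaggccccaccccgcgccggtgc

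The same windows were read for 23 of the named genes, and the 5 printed were picked from these after the matches were seen. GGATTA occurred in 2 of the 23, Zfp352 and Guca1a, and in 2.27% of the 27025 windows of the table. TATAAA occurred in 1 of the 23, that of Usp17lc, which is not printed, and in 4.14% of the table. The CpG count was 2 for Zfp352, 3 for Guca1a, 0 for Trim43a, 12 for Nop2 and 9 for Wdr43, beside a median of 3 over the table. These matches are descriptions of letters, not of binding. A comparison of promoters between the called classes is void and not reported, since only 70.8% of the tested genes had a promoter in the table.

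Timd2, a cell-surface receptor gene, and Kcnk6, a potassium channel gene, rose in every embryo but to different levels in the 2 sets of embryos. Timd2 held 0, 0.377, 0.118 and 0 CPM in the oocytes, 981 to 2341 CPM in the embryos numbered 37 to 41 and 160 to 441 CPM in those numbered 42 to 48. Kcnk6 had no count in the oocytes and held 283 to 677 CPM and 17.3 to 150.2 CPM in these sets. Usp17lc, of a multicopy deubiquitinase family, was ordered the other way, with 6.43 to 23.3 CPM in the embryos numbered 37 to 41 and 146 to 362 CPM in those numbered 42 to 48. These 3 genes did not overlap between the sets. The share of all genes that do not overlap between the sets was not counted. The labels do not define the sets, which were seen in these same libraries, so this separation is no independent evidence. The sets also differed in depth, and the part of depth was not tested.

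Pramel6, of the PRAME family, and Ubtfl1, a relative of a ribosomal RNA transcription factor, rose from 0 counts in the oocytes to 250 CPM ± 102 and 237 CPM ± 45.3 (SD, n = 12). Tdpoz1, of a family with TRAF and POZ domains, rose from 0 to 143 CPM ± 39.6 (SD, n = 12). Zscan4f, of the Zscan4 cluster that marks 2-cell-like cells, had no count in the oocytes and held 2.15 to 136 CPM in embryos (log2 fold change 10.94 ± 1.80, adjusted p 7e-05). Its near copy Zscan4d was already present in the oocytes at 17.6 to 39.8 CPM and was not called (1.48 ± 0.68, adjusted p 0.0733). Reads of Zscan4, Usp17l, Tdpoz, Trim43 and Pramel genes could have been split among near-identical copies, so the values of single members are uncertain.

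**Figure D2:**
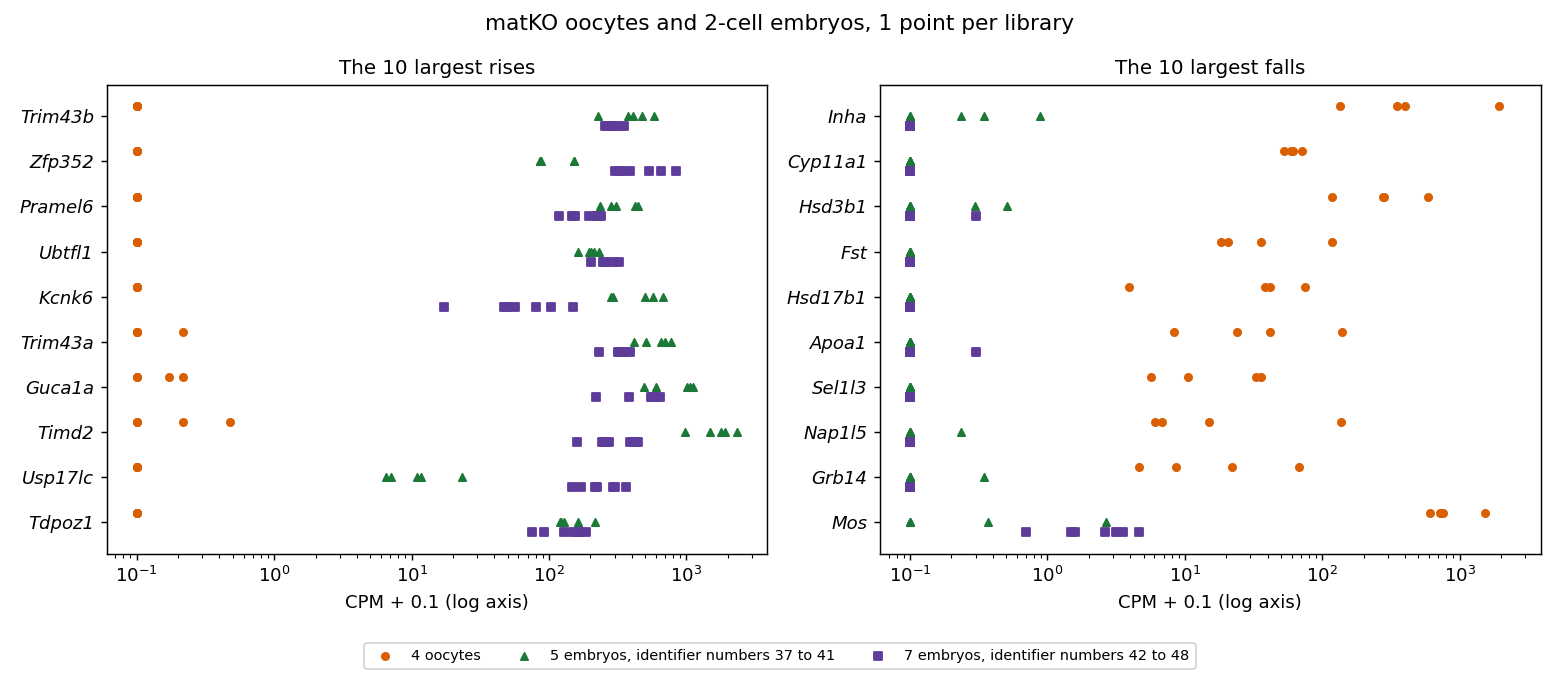
CPM + 0.1 on a log axis for the 10 largest rises (left) and the 10 largest falls (right), with 1 point for each of the 4 oocytes (orange circles), the 5 embryos numbered 37 to 41 (green triangles) and the 7 embryos numbered 42 to 48 (purple squares). Points at the left edge are libraries with no count; Zfp352, Kcnk6, Timd2 and Usp17lc show the 2 sets of embryos apart.

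Among factors linked to genome activation, 25 of 36 tested members rose, 3 fell and 8 were not called (median 1.74). Obox3, a homeobox gene of a multicopy cluster, held 0.860, 0.377, 0 and 0.516 CPM in the oocytes. In the embryos it held 207 CPM at the lowest, 359 CPM at the median and 650 CPM at the highest, all far above the oocytes (log2 fold change 9.53 ± 0.63, adjusted p 3e-10). Its relative Obox6 rose as well, from at most 1.51 CPM to between 324 and 1152 CPM. Obox2, of the same cluster, moved the opposite way: the oocytes held 5091, 4613, 4702 and 3003 CPM and the embryos 65.8 to 424 CPM (median 230), a fall of 4.25 on the log2 scale (adjusted p 6.2e-09). Obox1 and Obox7 fell as well, by 2.88 and 3.04 on the log2 scale.

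Gabpa, an ETS family transcription factor, rose from 3.66, 8.67, 9.33 and 6.11 CPM to between 411 and 754 CPM (median 529), 82.3-fold by the means. Kdm5b, a demethylase of H3K4me3, averaged 10.4 CPM (SD 1.57, n = 4) in oocytes and 603 CPM (SD 204, n = 12) in embryos, and its log2 fold change was 5.86 ± 0.39 (adjusted p 3.4e-10). Klf5, a Krüppel-like factor of early lineages, rose from at most 0.377 CPM to between 26.2 and 99.1 CPM. Dppa4, of the pair of chromatin proteins upstream of the 2-cell programme, rose 25.1-fold, with 9.81 to 25.9 CPM in oocytes and 216 to 549 CPM in embryos. Of the later pluripotency network, Sox2 stood low, with at most 6.32 CPM in embryos, and was not called (adjusted p 0.272). Nanog was called at 3.06 CPM ± 2.91 (SD, n = 12) after 0 counts in oocytes (adjusted p 0.00205). The change of Pou5f1 was not called (adjusted p 0.817).

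Maternal transcripts of the egg coat and of oocyte growth factors fell. Of 19 tested members, 13 fell, 2 rose and 4 were not called (median -3.29). Zp3, a protein of the zona pellucida, held 5121, 3769, 1993 and 5257 CPM in the oocytes. The embryos held 194 CPM at the lowest, 264 CPM at the median and 572 CPM at the highest. The groups did not overlap, and Zp3 was 12.4-fold lower by the means (log2 fold change -3.63 ± 0.30, adjusted p 7.5e-09). Zp2, another zona protein, fell by 4.34 and Oosp2, a secreted oocyte protein, by 3.83 on the log2 scale. Gdf9, a growth factor that the oocyte sends to its follicle, went from 7863, 6455, 2737 and 10650 CPM to between 326 and 783 CPM (median 473), a log2 fold change of -3.83 ± 0.28 (adjusted p 1.5e-09). Figla, a transcription factor of the growing oocyte, held 28.4 to 63.7 CPM in the oocytes and 6 counts in all over the embryos, 10 of which had none.

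Omt2a and Omt2b, neighbouring oocyte genes, were the members that rose. Omt2b held 744, 425, 492 and 238 CPM in the oocytes and 1072 to 5388 CPM (median 2895) in the embryos, with no overlap (log2 fold change 2.57 ± 0.43, adjusted p 5.1e-05). Omt2a rose 9.87-fold by the means. The embryos numbered 42 to 48 held more Omt2b (mean 3455 CPM) than those numbered 37 to 41 (mean 1904 CPM). Reads of these similar genes may have been divided between them.

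The subcortical maternal complex, a protein lattice under the egg membrane that early cleavage needs, fell almost throughout. With other maternal-effect genes it had 15 tested members, of which 14 fell and 1, Dppa3, was not called (median -3.38). Ooep held 3659, 2158, 1666 and 2386 CPM in the oocytes and 15.4 to 67.5 CPM (median 44.7) in the embryos, 55.4-fold less by the means (adjusted p 5.2e-11). Zar1, which binds maternal messenger RNA, held 2430, 1694, 1023 and 4817 CPM in the oocytes and 10.5 to 81.9 CPM (median 42.4) in the embryos, 58.4-fold less (adjusted p 3.3e-10). Tle6, a core member of the complex, fell by 3.66 on the log2 scale. H1foo, the linker histone of the oocyte, held 5158, 4174, 3801 and 7448 CPM and then 42.5 to 206 CPM (median 97.5), a log2 fold change of -5.40 ± 0.35 (adjusted p 2.1e-10). Dppa3, which protects maternal DNA methylation, stayed high, with 854 to 1910 CPM in oocytes and 758 to 3771 CPM in embryos (0.75 ± 0.32, adjusted p 0.0538). Dppa3 passed with library totals as the scale (adjusted p 0.0275), the edgeR 4 dispersions (0.0358), voom (0.0166) and the replicate block (0.0269). It also passed without the embryos numbered 42 to 48 (0.00102) and without oocyte 1 (0.0416), male embryo 2 (0.0336), female embryo 5 (0.0141) or female embryo 6 (0.0464).

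The proteins that store or destroy maternal RNA did not move as a group: 7 of 33 tested members rose and 10 fell (median -0.24). These counts lay near the shares over all genes (28.3% higher and 25.1% lower). With only the embryos numbered 37 to 41, 6 rose and 17 fell, and with only those numbered 42 to 48, 13 rose and 10 fell. The storage factors Cpeb1 and Patl2, which keep messages dormant, fell. Cpeb1 held 522, 506, 429 and 588 CPM in the oocytes and 7.67 to 61.8 CPM (median 24) in the embryos, a log2 fold change of -4.19 ± 0.34 (adjusted p 4.9e-09). Patl2 fell by 6.06, Pabpn1l, a poly(A)-binding protein of the egg, by 5.57, and Cnot11, a deadenylase subunit, by 3.25 on the log2 scale. Ythdf2, a reader of methylated RNA that promotes its decay, went from 26.9 to 42.4 CPM in oocytes up to between 126 and 491 CPM in embryos, a log2 fold change of 2.80 ± 0.38 (adjusted p 4.3e-06). Btg4, an adaptor of the deadenylase, was not called over all embryos (adjusted p 0.704). It held 934 to 1571 CPM in the oocytes, 259 to 542 CPM in the embryos numbered 37 to 41 and 1033 to 2358 CPM in those numbered 42 to 48. Without the second set it was lower than in oocytes (-1.75, adjusted p 0.000129), and without the first set it was not called (0.39, adjusted p 0.134).

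Genes of meiosis and of the early cell cycle moved in both directions. Of 37 tested members of that list, 10 rose and 13 fell (median -0.12), beside 28.3% higher and 25.1% lower over all genes. Mos, the kinase that holds the egg at metaphase of meiosis II, held 761, 717, 611 and 1537 CPM in the oocytes. The embryos held 0 CPM at the lowest, 1.43 CPM at the median and 4.53 CPM at the highest, 548-fold less by the means (log2 fold change -9.13 ± 0.66, adjusted p 1.1e-09). Bub1b, a spindle checkpoint kinase, held 1330, 1263, 1407 and 1033 CPM and then 12.5 to 56.2 CPM (log2 fold change -5.21 ± 0.30, adjusted p 6.1e-11). Ccne1, the cyclin that drives entry into S phase, held 17.4, 14.3, 20.2 and 5.99 CPM in the oocytes and 596 to 1131 CPM (median 830) in the embryos, 58.3-fold more (adjusted p 4e-10). Ccna2, the S and G2 phase cyclin, rose 5.59-fold, from 167 to 293 CPM in oocytes to between 1056 and 1936 CPM in embryos. Genes that license and fire replication origins were mixed, with 6 of 26 higher and 7 lower (median 0.19): Gmnn, the licensing inhibitor, rose 5.41-fold and Dbf4, the activator of the CDC7 kinase, 4.04-fold. Mcm5, a helicase subunit, fell 3.13-fold and Orc3, of the origin recognition complex, 6.62-fold.

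Among the largest falls were genes that the somatic cells of the ovarian follicle express. By the rule for the 10 largest falls, which asks for no overlap between the stages, these were Inha, Cyp11a1, Hsd3b1, Fst, Hsd17b1, Apoa1, Sel1l3, Nap1l5, Grb14 and Mos. Inha, the alpha subunit of inhibin, which granulosa cells secrete, held 135, 352, 1926 and 397 CPM in the oocytes and at most 0.782 CPM in the embryos, with 9 of 12 embryos at 0 (log2 fold change -12.33 ± 0.69, adjusted p 5.2e-11). Cyp11a1, the first enzyme of steroid synthesis, held 52.5, 71.6, 58.8 and 60.6 CPM and then no count in any of the 12 embryos, at least 1022-fold lower. Hsd3b1, the next enzyme of that pathway, held 277, 281, 588 and 117 CPM and then at most 0.404 CPM. Fst, a binding protein of activin, and Hsd17b1, of estrogen synthesis, held 18.1 to 117 CPM and 3.8 to 74.8 CPM in the oocytes and no count in the embryos, at least 634-fold and 609-fold lower.

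Of the other large falls, Sel1l3 held 5.59 to 35.8 CPM in the oocytes and no count in the embryos (at least 266-fold lower). Apoa1, an apolipoprotein gene, Nap1l5, an imprinted nucleosome assembly gene, and Grb14, an adaptor of the insulin receptor, each had 1 count over the 12 embryos. Their pooled ratios were 2057 (95% interval 369 to 81240), 1446 (260 to 57100) and 1011 (182 to 39950). Oocyte 3 was the highest of the 4 for 8 of these 10 genes; for Cyp11a1 it was oocyte 2 and for Mos oocyte 4.

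Over the whole list of 20 cumulus and granulosa markers, 12 were tested, 10 fell and 2 rose (median -6.23). The mean level of these markers was 4.39 to 5.68 log2 CPM in the 4 matKO oocytes and -0.0697 to 0.594 in the 12 embryos. Fewer attached cells and less of these messages per cell cannot be told apart in such libraries. Lhcgr, the receptor of luteinizing hormone, and Serpine2, a protease inhibitor, fell by 8.31 and 4.60 on the log2 scale, and Fshr, Inhba, Inhbb and Cyp19a1 fell too. Star, which moves cholesterol into mitochondria, was called lower (adjusted p 0.0157), but not without oocyte 2 (0.054). Serpine2 still held 4.44 to 41.7 CPM in the embryos. The members that rose were Amhr2, the receptor of anti-Müllerian hormone (5.03-fold), and Tnfaip6, a hyaluronan-binding protein (from 0 counts to 4.56 CPM ± 4.14, SD, n = 12). Markers of stroma and decidua were low on average at both stages, with 4 of 10 tested members lower and 1 higher. The higher one was Dio3 (3.18 on the log2 scale, adjusted p 0.0229), whose call was lost without oocyte 1, 2 or 3 (up to 0.0655). Col1a1, Vim, Pdgfra, Prl8a2 and Acta2 were not called. Of those that fell, Col3a1 held 4.15 to 15.6 CPM and Col1a2 2.3 to 11.2 CPM in the oocytes. Dcn, a proteoglycan of connective tissue, held 0.516 to 16.1 CPM in the oocytes and at most 3.77 CPM in the embryos (adjusted p 0.00739). Its call was lost with a sex term (0.0527), in female embryos only (0.073), without the embryos numbered 42 to 48 (0.0693) and with the replicate block (0.0537). Col6a1 was called lower (adjusted p 0.0152), but not without oocyte 3 (0.0517). None of 6 tested markers of blood and macrophages was called by edgeR's test, 2 had an unadjusted p under 0.05, and 3 were called with the edgeR 4 dispersions. Female embryo 4 stood apart in some of them. It held 2597 CPM of Lyz2, lysozyme of macrophages. The other embryos held 0 to 92.8 CPM of Lyz2 and the oocytes 0.912 to 48.5 CPM. Among the embryos it also held the most C1qb, a complement subunit (123 CPM, beside 30.4 to 150 CPM in the oocytes), and Saa3, an acute phase protein (180 CPM). For Cd74, also tested, female embryo 1 held more (54.87 CPM) than female embryo 4 (39.45 CPM). Without female embryo 4, 4176 genes were called higher and 3786 lower. The share of the other falls that follows these markers was not tested.

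**Figure D3:**
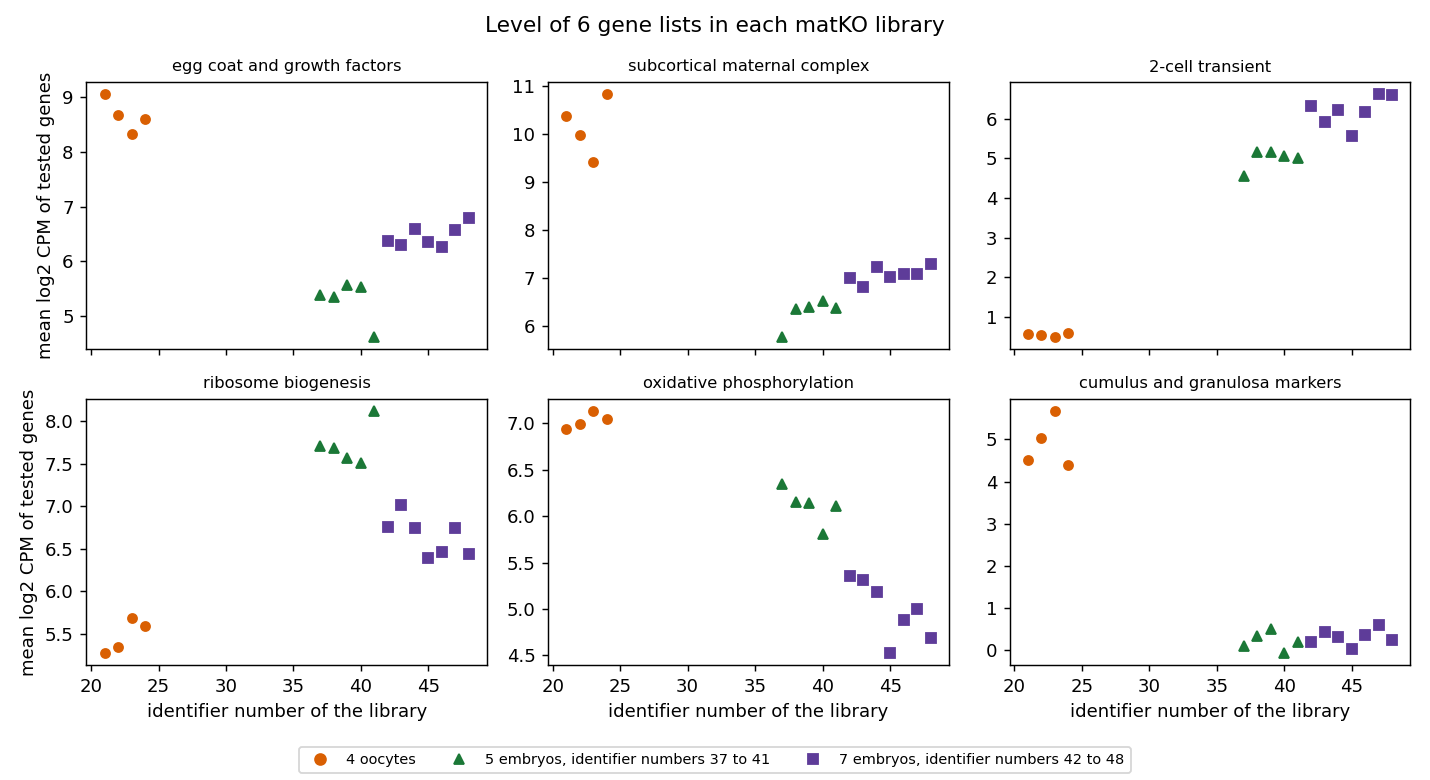
Mean log2 CPM of the tested members of 6 gene lists (y axis, a scale for each panel) in the 16 matKO libraries, plotted by identifier number (x axis): oocytes as orange circles, embryos numbered 37 to 41 as green triangles and those numbered 42 to 48 as purple squares. The cumulus and granulosa markers stand at 4.39 to 5.68 in the oocytes and under 0.6 in every embryo, and ribosome biogenesis and oxidative phosphorylation stand higher in the embryos numbered 37 to 41.

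Genes for ribosome assembly rose. Of 45 tested members, 28 rose, 1 was called lower and 16 were not called (median 1.72). The lower one, Ncl, or nucleolin (-0.80 ± 0.32, adjusted p 0.0403), lost its call without oocyte 2 or 4 or any of 6 embryos (female 2, 3, 5 and 6, male 1 and 2), with an adjusted p of up to 0.254. The promoters of Nop2 and Wdr43 are printed above. Nop2, which methylates ribosomal RNA, held 5.95, 5.46, 8.62 and 12.3 CPM in the oocytes and 122 to 773 CPM (median 239) in the embryos, with no overlap (log2 fold change 5.35 ± 0.57, adjusted p 2e-07). Wdr43, of the small-subunit processome, started higher, at 125, 126, 141 and 95.2 CPM, and reached 439 to 1133 CPM (median 698), 6.07-fold more. Nob1, which makes the last cut of the small-subunit RNA, rose 30-fold and Taf1d, of the RNA polymerase I initiation complex, 11.5-fold. The list's mean level was 5.28 to 5.69 log2 CPM in the oocytes, 7.5 to 8.12 in the embryos numbered 37 to 41 and 6.39 to 7.02 in those numbered 42 to 48. Both sets of embryos lay above every oocyte, without overlapping each other.

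A list of 28 translation genes held initiation factors, the elongation factors Eef1a1, Eef1b2 and Eef2 and the poly(A)-binding proteins Pabpc1 and Pabpc4. Of these 28 genes 12 were higher and 4 lower (median 0.84), beside 28.3% higher and 25.1% lower over all genes. Eef1a1 and Eef1b2 were among the lower genes, and Pabpc1 and Pabpc4 among the higher. The median was 1.33 (18 higher, 2 lower) with only the embryos numbered 37 to 41 and 0.29 (12 higher, 6 lower) with only those numbered 42 to 48. Eif4g2, a scaffold of cap-independent initiation, rose from 482, 512, 494 and 414 CPM to 1416 to 2683 CPM (median 1997), a log2 fold change of 2.10 ± 0.23 (adjusted p 3.2e-07). Eif5 rose 2.79-fold. Eif1ax fell 5.05-fold while its near copy Eif1a rose 9.72-fold, and reads of these copies may have been divided between them.

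Splicing, proteasome and chaperone genes moved in both directions, beside 28.3% higher and 25.1% lower over all genes. Of 33 spliceosome genes 5 rose and 9 fell (median -0.31). With only the embryos numbered 37 to 41, 13 rose and 7 fell (median 0.053), and with only those numbered 42 to 48, 5 rose and 15 fell (median -0.57). Over all embryos, Prpf4, of the U4/U6 particle, rose 9.56-fold and the splicing factor Srsf1 3.31-fold, while Prpf6 fell 3.75-fold and Sf3b3 3.05-fold. Of 33 proteasome genes 6 rose and 13 fell (median -0.78). Psma7, a subunit of the core ring, held 396, 435, 472 and 856 CPM in the oocytes and 1.9 to 93.5 CPM (median 19.9) in the embryos, 19.1-fold less. Psma2 and Psmc3 fell 4.65-fold and 4.71-fold, and Psmd11, of the lid, rose 3.50-fold. The proteasome list stood at 7.41 to 7.63 log2 CPM in the oocytes, 7.23 to 7.74 in the embryos numbered 37 to 41 and 5.54 to 6.32 in those numbered 42 to 48. Its median change was -0.00365 without the embryos numbered 42 to 48 and -1.53 without those numbered 37 to 41. Of 26 chaperones 6 rose and 7 fell, near the shares over all genes. With only the first set of embryos 10 rose and 5 fell, and with only the second 4 rose and 10 fell. Over all embryos Hsp90aa1 fell 3.19-fold, Cct5, of the cytosolic chaperonin, 4.64-fold, Hspe1 2.81-fold and Dnajb1 2.80-fold.

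Nuclear genes of oxidative phosphorylation fell: 23 of 36 tested members were lower, 2 were higher (Atp5b and Cyc1) and 11 were not called (median -1.35). The call of Cyc1 was lost without oocyte 1 (adjusted p 0.0837) or 2. Ndufa8, a subunit of complex I, held 168, 137, 153 and 127 CPM in the oocytes and 0 to 14.9 CPM (median 5.68) in the embryos, 24.8-fold less (adjusted p 6.4e-07). Uqcrc2, of complex III, fell 9.36-fold, Ndufb5 7.95-fold and Ndufa10 4.68-fold. Among the 4 subunits of complex II, Sdha, Sdhc and Sdhd had log2 fold changes of -2.39, -2.67 and -3.20. Sdhb (-1.45 ± 0.56, adjusted p 0.0359) lost its call without oocyte 2, 3 or 4, male embryo 2 or female embryo 5 (adjusted p up to 0.0722). The mean level of the list was 6.93 to 7.14 log2 CPM in the oocytes, 5.81 to 6.35 in the embryos numbered 37 to 41 and 4.53 to 5.36 in those numbered 42 to 48. Both sets of embryos thus lay below every oocyte.

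Glycolysis and cholesterol synthesis showed no common direction, beside 28.3% higher and 25.1% lower over all genes. Of 20 glycolysis genes 5 rose and 3 fell: Slc2a3, a glucose transporter, rose from 0.717, 1.32, 1.06 and 0 CPM to 9.69 to 51.5 CPM (28.6-fold), Pdhb, of pyruvate dehydrogenase, rose 2.27-fold, and Tpi1 fell 4.22-fold. Ldhb, the lactate dehydrogenase of the oocyte, fell 5.22-fold from 1763 to 8473 CPM to between 458 and 1321 CPM. Of 21 cholesterol genes 5 rose and 6 fell: Sqle, the squalene epoxidase, rose 9.18-fold and Mvk, mevalonate kinase, 13.9-fold, while Fdft1, squalene synthase, fell 2.61-fold and Nsdhl 14.2-fold.

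PRC2, the complex that Ezhip inhibits, changed subunit by subunit. Of 14 tested genes of the complex, its cofactors and its inhibitors, 5 rose and 1 fell (median 0.95). Suz12, a core subunit, held 245, 204, 238 and 111 CPM in the oocytes and 548 to 1371 CPM (median 975) in the embryos, with no overlap (log2 fold change 2.28 ± 0.30, adjusted p 3.1e-06). Mtf2 and Aebp2, accessory subunits that guide the complex to DNA, rose 4.99-fold and 2.23-fold, and the cofactor gene Lcor rose 2.98-fold. The alternative catalytic subunit Ezh1 was 1.59-fold higher (adjusted p 0.0268) and was not called when any 1 of the 4 oocytes was left out (adjusted p up to 0.0764). Rbbp7, a histone chaperone shared with other complexes, fell from 1765, 1651, 1853 and 1596 CPM to between 312 and 611 CPM (log2 fold change -1.87 ± 0.19, adjusted p 1.2e-07). The catalytic subunit Ezh2 held 464 to 739 CPM in oocytes and 175 to 570 CPM in embryos and was not called (-0.63 ± 0.27, adjusted p 0.0585), nor was the H3K27me3 reader Eed (-0.37 ± 0.24, adjusted p 0.2).

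Of 14 tested genes of DNA methylation, 5 fell, 2 rose and 7 were not called (median 0.46). Dnmt1, the maintenance methyltransferase, held 1921, 1706, 1399 and 2447 CPM in the oocytes and 65.6 to 202 CPM (median 141) in the embryos, 13.2-fold less (adjusted p 1.1e-09). Its partner Uhrf1 fell 7.67-fold, and Zfp57, which guards methylated imprints, fell 4.99-fold, from 643 to 924 CPM in oocytes to between 89.3 and 274 CPM in embryos. Tet1, which oxidises methylated cytosine, rose 8.68-fold. Zfp445, another zinc finger protein that guards imprints, was called higher (3.21 on the log2 scale, adjusted p 0.0257), but not without oocyte 1, 2 or 3 (adjusted p up to 0.072). Trim28, the corepressor of both, was not called (0.62, adjusted p 0.135), nor was the methyltransferase Dnmt3a (-0.62, adjusted p 0.0598). Among 29 histone methylation enzymes 15 rose and 2 fell (median 1.14). Kdm4c, a demethylase of H3K9, rose from 0.0717, 0, 1.18 and 2.1 CPM to between 61.3 and 187 CPM (133-fold), Kdm5a, of H3K4, 20.5-fold, Suv420h1, a methyltransferase of H4K20, 16.1-fold, and Setd2, of H3K36, 4.97-fold.

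Noncanonical imprinted genes were mostly near the limit of detection. Of 8 listed genes 6 were tested and 2 rose. Jade1, of a histone acetyltransferase complex, held 1.29, 6.03, 8.03 and 5.08 CPM in the oocytes and 57.1 to 159 CPM (median 108) in the embryos (log2 fold change 4.39 ± 0.45, adjusted p 1.3e-07). Platr20, a noncoding RNA, held 0 to 1.32 CPM and then 0 to 12.8 CPM (adjusted p 0.0387). Its call was lost without oocyte 1 (adjusted p 0.102), 3 (0.0891) or 4 (0.11), female embryo 3 (0.0561) or 4 (0.0539), or male embryo 1 (0.0502). It was also lost without the embryos numbered 37 to 41 (0.0737), in female embryos only (0.058), with no count filter (0.0608) and in the fit on 30 libraries (0.0574). Gab1, a signalling adaptor, held 6.45 to 18.8 CPM in oocytes and 0 to 21.2 CPM in embryos and was not called (-0.50 ± 1.06, adjusted p 0.711); 4 of the 5 embryos numbered 37 to 41 held 15.8 to 21.2 CPM and those numbered 42 to 48 at most 6.9 CPM. Gab1 was called lower without the embryos numbered 37 to 41 (-2.15, adjusted p 0.0382) and with voom (-2.33, adjusted p 0.00861). Sfmbt2, a Polycomb-related gene (adjusted p 0.233), Slc38a4, an amino acid transporter (0.29), and Smoc1, a matrix protein (0.307), were not called, with embryo medians of 1.47, 1.72 and 0.124 CPM. With voom, Sfmbt2 was called higher (2.43, adjusted p 0.011) and Smoc1 lower (-2.45, adjusted p 0.00647).

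A p53 list with 17 tested genes held Trp53 itself, Mdm4 and targets of p53. Of these 17, 8 were higher and 1 lower (median 1.13), beside 28.3% higher and 25.1% lower over all genes. The lower gene, Perp (adjusted p 0.0276), lost its call without oocyte 2, 3 or 4 (up to 0.0848). Sesn2, a stress sensor, rose from 3.44, 3.02, 7.56 and 3.25 CPM to between 140 and 500 CPM (65-fold, adjusted p 1.6e-09). Cdkn1a, the p21 inhibitor of cyclin-dependent kinases, rose from 1.94, 1.32, 1.3 and 0.793 CPM to between 18.1 and 92.4 CPM (median 63.9), a log2 fold change of 5.56 ± 0.50 (adjusted p 2.2e-08). Pmaip1, a promoter of apoptosis, rose 44-fold and Trp53inp1 4.61-fold. Trp53 itself was not called. Of 14 immediate early genes, Ier3 and Klf2 were called higher and Fosl2 lower. Ier3 rose by 3.12 ± 0.91 on the log2 scale, with an adjusted p of 0.0564 without the embryos numbered 42 to 48 and 0.0566 in female embryos only. Klf2 (3.12 ± 1.12, adjusted p 0.0237) held 41.9 to 386 CPM in the embryos numbered 37 to 41 and 2.38 to 49.8 CPM in the others. Its call was lost without the embryos numbered 37 to 41 (1.08, adjusted p 0.201) and without oocyte 1 (0.0679), 2 (0.0561) or 4 (0.0715). Fosl2 (-3.12 ± 1.11, adjusted p 0.0224) was not called without oocyte 2 (0.0523) or 3 (0.0754), without the embryos numbered 42 to 48 (0.0547), with a sex term (0.0509) or with the replicate block (0.108).

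**Figure D4:**
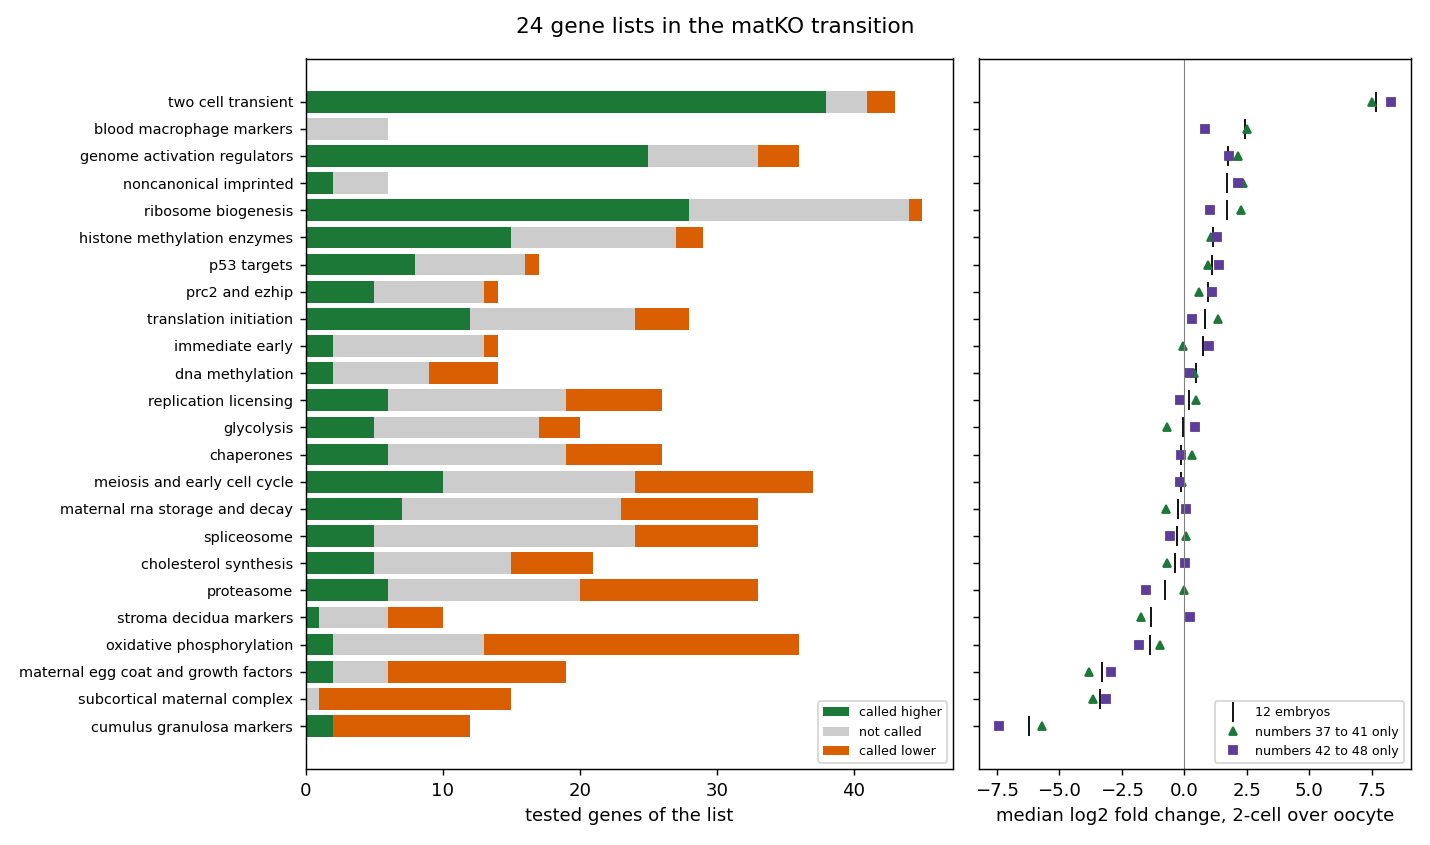
Left, the tested members of each of 24 gene lists that were called higher (green), not called (grey) or called lower (orange) in matKO 2-cell embryos. Right, the median log2 fold change of each list over all 12 embryos (black bar), with the embryos numbered 37 to 41 only (green triangles) and with those numbered 42 to 48 only (purple squares); the 2-cell list is highest at 7.67 and the cumulus and granulosa markers lowest at -6.23.

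The most abundant messages per length differed between the stages. By mean RPKM the leading genes of the matKO oocytes were H1foo (4284), Gdf9 (3411), Ldhb (3095), Zp3 (3050), Uchl1 (2969) and Rplp1 (2894), among genes with standard symbols. In the embryos they were Rplp1 (4904), Dppa3 (2519), Rps12 (1957), Omt2b (1817), Rps26 (1474) and Oog3 (1462). Uchl1, a deubiquitinase of the egg, fell 6.69-fold. The ribosomal protein genes Rplp1, Rps12 and Rps26 and the oocyte gene Oog3 were not called over all embryos. Without the embryos numbered 42 to 48, Rplp1 (1.58, adjusted p 0.00988) and Rps26 (1.145, adjusted p 0.023) were called higher. Without those numbered 37 to 41, Oog3 was called higher (1.06, adjusted p 8.8e-05) and Rps12 lower (-0.54, adjusted p 0.035). Oog3 was also called higher with voom (0.58, adjusted p 0.0356). Oog3 held 806 to 1935 CPM in the embryos numbered 37 to 41 and 3154 to 4789 CPM in the others, on either side of the oocytes (1466 to 2176 CPM). Rplp1 held 957 to 5428 CPM in the first set and 657 to 1863 CPM in the second. Ribosomal protein genes have many processed copies, and their reads may have been divided among them.

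Genes called higher had fewer exons than genes called lower, as a description of the annotation. The median number of merged exons was 7 among the 4207 higher genes, 9 among the 3733 lower genes and 9 among all tested genes, and single-exon genes made up 11.7%, 3.32% and 7.11% of them. Their median genomic span was 16.7, 24.6 and 21.2 kb. When each library was thinned to 1476150 counts, the oocytes held 15289 to 15996 genes with a count and the embryos 13292 to 15664 (median 14410). The difference of means was -1147 genes (exact permutation test, two-sided, p = 0.00934, adjusted over 2 tests 0.00934, smallest possible p 0.000549). It was -1774 without the embryos numbered 42 to 48 and -699 without those numbered 37 to 41. For genes with at least 5 counts the difference was -230 (exact p = 0.356). The 50 most abundant genes of each library took 12.5% ± 1.48 (SD, n = 4) of the counts in oocytes and 9.66% ± 0.860 (SD, n = 12) in embryos (exact permutation p = 0.00165, adjusted 0.0033).

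The same transition was fitted in WT libraries, which share no library with the matKO fit. Of 16620 tested genes, 4275 were higher (25.7%) and 3442 lower (20.7%) in WT 2-cell embryos. Among 14632 genes tested in both, 3385 were called higher in both, which is 85.5% of the WT calls and 82.2% of the matKO calls. Those called lower in both numbered 2706, or 82.6% and 73%. No gene was called in opposite directions. Across genes, which are not independent replicates, the log2 fold changes correlated with Pearson's r = 0.922 and Spearman's rho = 0.929.

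A test of the difference itself, the matKO stage effect minus the WT stage effect in the 30 libraries, called 5 of 17486 genes (0.0286%), and 952 had an unadjusted p under 0.05. Ezhip (AU022751) differed by 6.68 ± 1.20 (adjusted p 0.0204), with a log2 fold change of -3.16 in WT. It is the gene that matKO lacks, and its level in the matKO oocytes was near 0. Its difference was thus set by the genotype and is no independent evidence. Rarg, a retinoic acid receptor gene, differed by -6.70 ± 1.10 (adjusted p 0.0128). It had no count in the 3 WT oocytes and 0.399 to 2.76 CPM in the 4 matKO oocytes, and overlapping levels in WT (34.3 CPM ± 14.6, SD, n = 11) and matKO embryos (24.7 CPM ± 10.5, SD, n = 12).

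The other 3 genes rose more in matKO. Tacr3, a neurokinin receptor gene, had 0 counts in the matKO oocytes and at most 0.797 CPM in the WT oocytes. It held 5.9 to 54.6 CPM in the matKO embryos and 0 to 0.934 CPM in the WT embryos, without overlap (10.04 ± 1.83, adjusted p 0.0204). Pramef25, of the PRAME family, held 22.3 to 187 CPM in matKO and 3.36 to 41.5 CPM in WT embryos (5.11 ± 0.99, adjusted p 0.0348). Its oocyte levels were 0 to 0.379 CPM in matKO and 0.598 to 2.39 CPM in WT. Tdpoz1 held 74.6 to 216 CPM in matKO and 32.1 to 145 CPM in WT embryos, and 0 CPM in matKO oocytes beside 0 to 1.29 CPM in WT oocytes (5.78 ± 1.05, adjusted p 0.0204). For Ezhip, Rarg, Tacr3, Pramef25 and Tdpoz1 the size of the difference rests in part on few counts at oocyte levels near 0. For Ezhip this holds for the matKO oocytes only. Pramef25 and Tdpoz1 have near-identical copies, so their values are uncertain.

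The sixth gene by p, Hnrnpl, which encodes a splicing regulator, did not pass (-5.67 ± 1.18, adjusted p 0.0831), nor did Inha (-9.38 ± 1.99, adjusted p 0.091). Inha held 0 to 144 CPM (median 23.5) in the WT embryos and at most 0.778 CPM in the matKO embryos. Cyp11a1 had the same pattern, at 0 to 339 CPM in WT embryos and 0 in all matKO embryos (adjusted p 0.651). The count of differing genes depended on single libraries: it was 0 without matKO oocyte 3 (edgeR's quasi-likelihood test, with 737 genes at an unadjusted p under 0.05), 1 without matKO oocyte 1 or 4 and 3 without WT oocyte 1. It was 3 without the embryos numbered 42 to 48 and 201 without those numbered 37 to 41, and 15 with DESeq2.

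**Figure D5:**
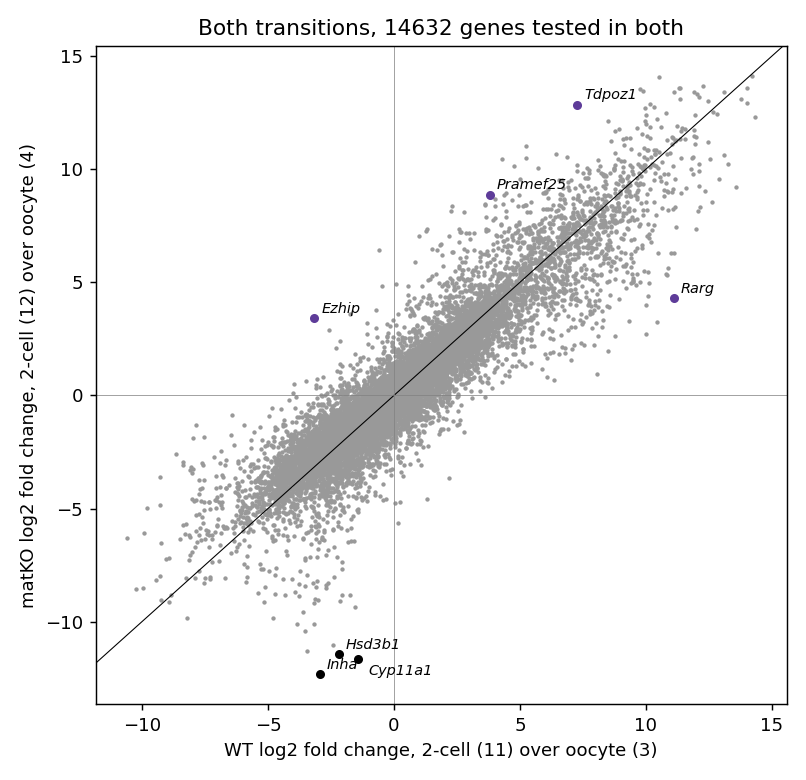
Log2 fold change from oocyte to 2-cell embryo in WT (x axis, 11 embryos over 3 oocytes) and in matKO (y axis, 12 embryos over 4 oocytes) for the 14632 genes tested in both, with the line of equal change. Purple points are genes whose change differed by the test of the difference. Tacr3, which also differed by that test, is not marked. The black points Inha, Hsd3b1 and Cyp11a1, which did not pass that test, lie below the line.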

How the data were processed

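Per gene and library, the deposited values are unnormalized whole-number counts in a table for each stage. Trim Galore, STAR, SAMtools, featureCounts and the build mm10 are named, without versions, per the submitters' processing notes. The sources used here do not give strand or multi-mapping settings, so overlapping, antisense and multicopy genes are uncertain. The oocyte and 2-cell tables were joined by symbol (48320 of 48321 rows); no column lacked a sample. In R 4.3.3, genes were kept by filterByExpr (minimum count 10) of edgeR 4.0.16 and scaled by TMM to CPM, counts per megacount of the library. They were tested by estimateDisp (robust), glmQLFit (robust, legacy=TRUE) and glmQLFTest, with Benjamini-Hochberg adjustment over all tested genes and a threshold of 0.05. The 16 matKO libraries were fitted without covariates, the WT libraries likewise, and the difference on 30 libraries. Each SE was taken as the fold change over the root of F. CPM means carry the SD; log2 CPM use a prior count of 2; RPKM divide CPM by gene length. Folds against a stage at 0 use a floor of 3 counts over the stage (0.0567 CPM in oocytes, 0.0581 in embryos). Intervals of pooled ratios cover counting error only. The procedure was tested on simulated data.

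Named genes were Ezhip; the 10 largest rises and falls among called genes with at least 20 CPM in the higher stage, no overlap and a standard symbol; the 6 highest by RPKM at each stage; up to 4 called members of each list with the smallest p; all tested noncanonical imprinted genes; and the 6 smallest p of the difference. Other list members named in the text were chosen after their values were seen. The members, lists and tests were chosen with earlier results of these data known. Promoters come from RefSeq (GRCm38.p6). Alternatives were edgeR 4 dispersions, RLE, library totals, no filter, a 2-fold threshold, a sex term, female embryos only, each set of embryos left out, each library left out, a replicate block, DESeq2 1.42.0 and voom with quality weights (limma 3.58.1).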

Additional observations from a re-analysis of the deposited data

Results flagged for a closer look

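Among 118 named genes that were tested, 7 had a matKO oocyte apart from the other 3, judged by its gap to the nearest oocyte over the range of all 4, against Dixon's 95% critical value. Chance flags about 1 in 20 groups, and the 12 embryos were too many for this test. Oocyte 4 was low for Smoc1 (0.9), Mcm5 (0.857) and Gmnn (0.847). Oocyte 1 was low for Prpf4 (0.866) and high for the stroma markers Col1a2 (0.837) and Col3a1 (0.834). Oocyte 3 was high for Sesn2 (0.86).

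The change from oocyte to 2-cell embryo differed between matKO and WT for 5 genes by edgeR's test of the difference: Rarg (-6.70), Ezhip, listed as AU022751 (6.68), Tdpoz1 (5.78), Tacr3 (10.04) and Pramef25 (5.11). Ezhip is the gene that matKO lacks, so its difference was set by the genotype. Among the 5, Tacr3 was the one with separate embryo ranges and both sets of oocytes at or near 0. Its matKO level was 11.4 CPM in the embryos numbered 37 to 41 and 22.4 CPM in those numbered 42 to 48.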

How the results depend on the processing

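The number of genes called (7940) ran from 5492 with a 2-fold threshold to 10826 with voom, and from 6949 to 8018 when 1 library was left out. Genes called lower (3733) moved to 6054 with no count filter, 2403 with the 2-fold threshold and 5834 with voom. The count of differing genes (5) was 2 with the edgeR 4 dispersions, 3 without the embryos numbered 42 to 48, 201 without those numbered 37 to 41, 15 with DESeq2, and 0 to 5 when 1 oocyte was left out; the cause was not tested. The difference in detected genes was -230 (exact p = 0.356) for genes with at least 5 counts.

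Of 3410 values of named genes under alternatives, 3336 kept their direction and side of the threshold, 33 lost and 23 gained a call, and 18 changed sign, of genes that were not called. Rps12 (0.00 in the main fit) was at -0.11 with RLE and DESeq2, -0.17 with no filter, -0.54 without the embryos numbered 37 to 41, -0.082 on 30 libraries, -0.41 with voom, and -0.16 to 0.14 when 1 library was left out. Oog3 and Gab1 were at -0.57 and 0.54 without the embryos numbered 42 to 48, and Rplp1 and Rps26 at -0.088 and -0.25 without those numbered 37 to 41. Of the list medians, immediate early genes were at -0.032 without the embryos numbered 42 to 48 and stroma markers at 0.23 without those numbered 37 to 41. Blood and macrophage markers were at -0.45 with voom and at -0.068 to 2.57 when 1 library was left out.

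Replicate numbers did not pair the libraries: same-numbered oocytes and embryos had correlations of their deviations from -0.127 to 0.0455. A fit with the replicate block called 4116 genes higher and 4183 lower, and put Gab1 at 0.052. A comparison of promoters between called classes is void, with promoters for 70.8% of genes, and not reported. Depth limits low genes: 3 counts over a stage are 0.0567 CPM in oocytes and 0.0581 CPM in embryos.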
